A study of Homo sapiens with 6 samples.

Results

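The kinase mTOR, its switch RHEB, the TSC complex that restrains RHEB, the stress proteins DDIT4, SESN1 and SESN2, the mTORC1 subunit RPTOR and the targets RPS6KB1 and EIF4EBP1 were followed as 1 set of 10 genes in human neuroblastoma SH-SY5Y cells. Members were all probe sets of the array whose annotation gives exactly 1 gene symbol and whose symbol is in the set. This rule found 15 probe sets of 8 genes, out of 22215 probe sets tested. The symbols SESN2 and RPTOR stand on no probe set of the annotation used, and both genes were not analysed here.

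Cells of the ATCC line CRL-2266 were exposed for 1 h to Bf 140 nM, the fraction of unconjugated bilirubin (UCB) that is not bound to albumin, or to DMSO 0.6%, the vehicle, with 3 samples each. Per the study's methods UCB was dissolved in DMSO at the same percentage and diluted in medium with serum albumin, so DMSO was shared by the groups, and cells of both had grown in serum before the medium was changed. Each sample gave 1 Affymetrix GeneChip array of total RNA, labelled as 1 of 3 independent biological replicates and numbered alike in Bf 140 nM and DMSO 0.6%. SH-SY5Y is a single tumour-derived line used as a model of neurons, and fewer cells or less RNA per cell cannot be told apart in such bulk RNA.

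Of the noradrenergic neuroblastoma markers, 7 of the 9 measured lay above the 75th percentile of all probe sets by their brightest probe set. TH (tyrosine hydroxylase) was at the 13.9 percentile and HAND2 at the 49.6. Markers of immune cells (4 measured), endothelium (3) and glia (4) were all below the 50th percentile, while the 4 of fibroblasts were at the 61.3 to 87.3. Both replicate 3 arrays stood apart, with correlations of 0.961 to 0.977 to the arrays of replicates 1 and 2, which correlated among themselves at 0.993 or more. The 3′ probe set of the actin control exceeded the 5′ one by 1.49 log2 on the Bf 140 nM array of this number and by 1.90 log2 on the DMSO 0.6% array, against 0.10 to 0.50 log2 on the other arrays. For GAPDH this gap was 1.03 log2 on the same array of Bf 140 nM, 1.15 log2 on that of DMSO 0.6% and 0.20 to 0.25 log2 on the others.

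mTOR complex 1 is a kinase that promotes protein synthesis and holds back autophagy when growth factors and amino acids are plentiful. It is switched on at the lysosome by the small GTPase RHEB, which the TSC1 and TSC2 proteins keep in its inactive, GDP-bound form. DDIT4 (also called REDD1) and the sestrins are made under stress and restrain the pathway, DDIT4 through the TSC complex and sestrins through the amino acid branch. Active mTORC1 phosphorylates the kinase S6K1, encoded by RPS6KB1, and the translation repressor 4E-BP1, encoded by EIF4EBP1. Much of this control is by phosphorylation, which arrays of RNA do not measure.

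The comparison asks whether transcripts of the set respond early to UCB. After 1 h at Bf 140 nM, none of the 15 member probe sets (0 higher, 0 lower) differed from DMSO 0.6% at a limma adjusted p under 0.10. The background was 0% of all probe sets in each direction. At an unadjusted p under 0.05 limma called 0 of the 15, where 0.099% of all probe sets were called. With the replicate number as a block, again 0 of 15 passed the adjusted threshold in either direction (0% of all), and 0 of 15 had an unadjusted p under 0.05 (1.22% of all). Each member had an adjusted p = 1.00. Differences ran from -0.097 log2 for TSC1 to 0.13 log2 for EIF4EBP1, with a median of 0.013 log2 over the 15 (0.014 over all tested probe sets). Without the Bf array of replicate 3 the median over the 15 was 0.090 log2. Positive differences were found in 9 of 15 members and in 58.4% of all probe sets, and with equal array medians in 6 of 15 and in 47.1% of all.

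**Figure D1:**
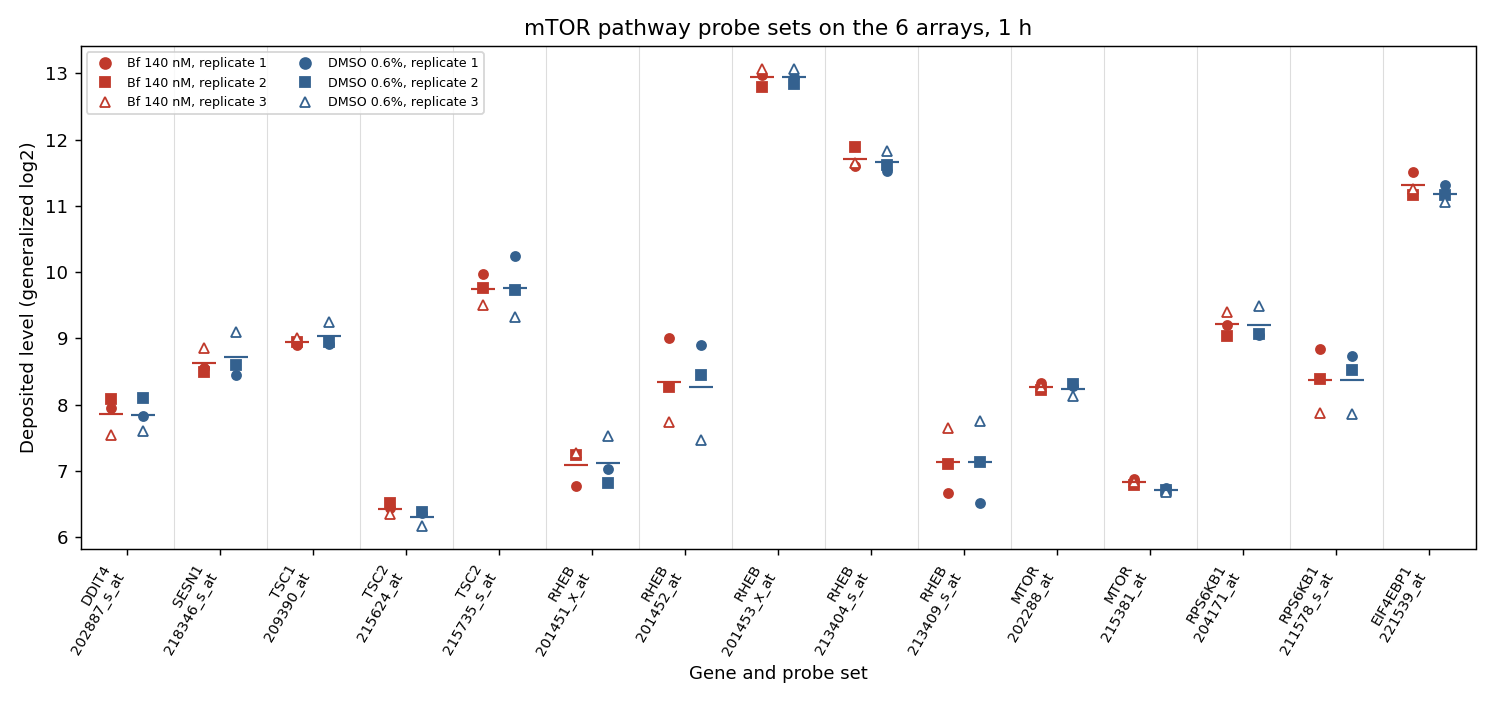
Deposited level on a generalized log2 scale (vertical axis) of each member probe set (horizontal axis) on the 6 arrays, with Bf 140 nM in red left of DMSO 0.6% in blue, symbols for replicate numbers and short lines for group means. Groups overlap in 14 of the 15 probe sets, and open triangles of replicate 3 lie on the same side in both groups for RHEB 201452_at, RHEB 213409_s_at and RPS6KB1 211578_s_at.

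**Figure D2:**
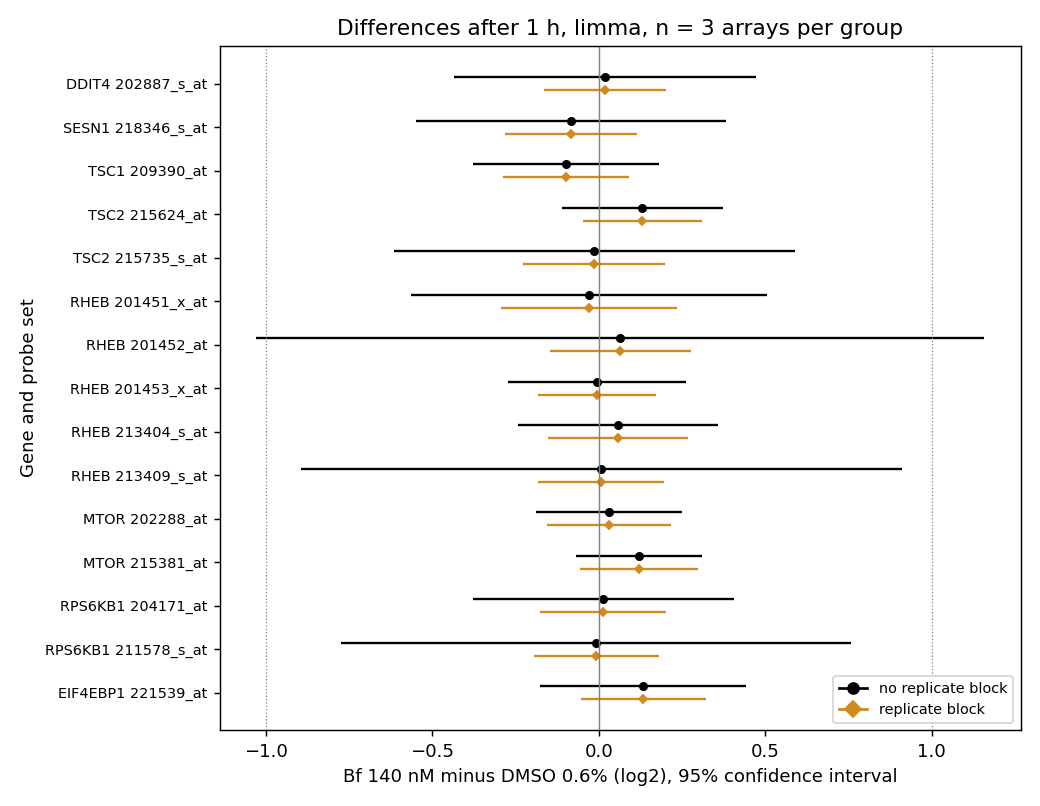
Bf 140 nM minus DMSO 0.6% in log2 (horizontal axis) for each member probe set (vertical axis), with 95% confidence intervals from limma without a replicate block (black circles) and with it (orange diamonds), n = 3 arrays per group. Dotted lines mark 2-fold, and every interval includes 0.

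DDIT4 was measured by 1 probe set, 202887_s_at, close to the middle of the array at the 49.2 percentile of all levels. It was at 7.95, 8.09 and 7.55 in replicates 1, 2 and 3 of Bf 140 nM, against 7.82, 8.10 and 7.60 in DMSO 0.6%. The groups overlapped over nearly all of their range, and in both the replicate 3 array was the lowest. The means were 7.86 ± 0.28 in Bf 140 nM and 7.84 ± 0.25 in DMSO 0.6% (SD, n = 3 each), a difference of 0.019 log2 with a 95% confidence interval of -0.44 to 0.47. With the replicate block the interval was -0.16 to 0.20 log2. Within replicate pairs the difference was 0.12, -0.0083 and -0.056 log2, so its sign was not shared by the pairs. Leaving out replicate 3 of DMSO 0.6% gave -0.10 log2, and leaving out that of Bf 140 nM gave 0.18 log2. Later times of treatment were not analysed here.

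The DDIT4 promoter is shown because this inhibitor is controlled largely through the amount of its transcript, and that of TSC2 because it was the only one of the members' windows with a match to TGATGNAA. The windows hold 250 bases before and 50 after a gene's start, from RefSeq on GRCh38.p14, in which 9 members matched with 12 windows. Both strands were searched for TGATGNAA, the type of element bound by ATF4 under amino acid shortage, and for CACGTG, the E box read by MYC and the TFEB family. The last motif was ACGTG, a form of the core of the hypoxia response element, which is also part of CACGTG. Of all 35116 windows, shares of 3.62%, 7.26% and 21.4% hold these motifs in that order, and of the 12 member windows 1, 1 and 3 do. Capitals mark the matches.
DDIT4, chr10:72273674-72273973, plus strand: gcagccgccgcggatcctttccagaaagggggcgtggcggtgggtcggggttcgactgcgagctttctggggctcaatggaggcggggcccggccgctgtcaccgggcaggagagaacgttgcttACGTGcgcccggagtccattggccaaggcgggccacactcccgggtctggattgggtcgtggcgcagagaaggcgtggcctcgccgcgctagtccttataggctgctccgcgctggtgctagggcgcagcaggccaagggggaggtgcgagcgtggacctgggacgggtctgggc
TSC2, chr16:2047735-2048034, plus strand: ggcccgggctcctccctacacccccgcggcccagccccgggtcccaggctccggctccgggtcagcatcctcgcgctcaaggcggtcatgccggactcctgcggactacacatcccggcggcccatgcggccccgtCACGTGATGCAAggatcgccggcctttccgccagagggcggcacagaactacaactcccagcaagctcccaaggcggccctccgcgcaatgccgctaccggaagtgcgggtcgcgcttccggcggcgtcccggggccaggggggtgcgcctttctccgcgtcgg
In DDIT4 the match is ACGTG at bases 126 to 130 of the window, and other forms of this core were not searched. In TSC2, CACGTG at bases 137 to 142 overlaps TGATGCAA at 141 to 148, and both ACGTG matches of that window lie inside the CACGTG. The remaining ACGTG is in RHEB, at bases 170 to 174 on the opposite strand. These matches are letters in a window and were not measured as binding sites in these cells.

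SESN1, a p53-induced sestrin, was at the 63.0 percentile on 218346_s_at. Its level was 8.55, 8.49 and 8.85 in Bf 140 nM, against 8.44, 8.60 and 9.09 in DMSO 0.6%, and the replicate 3 array was the highest in both groups, the opposite of DDIT4. The means of 8.63 ± 0.19 in Bf 140 nM and 8.71 ± 0.34 in DMSO 0.6% (SD, n = 3 each) differed by -0.083 log2 (95% confidence interval -0.55 to 0.38, and -0.28 to 0.12 with the replicate block). Pair differences were 0.11, -0.12 and -0.24 log2, and the sign turned to 0.11 log2 without the DMSO array of replicate 3. For both stress inhibitors measured, a 2-fold change at 1 h lay outside the interval.

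TSC1 (hamartin), which stabilizes the complex, was at the 67.8 percentile. It gave 8.89, 8.94 and 9.00 in Bf 140 nM, against 8.92, 8.95 and 9.25 in DMSO 0.6%. The difference of -0.097 log2 (95% confidence interval -0.38 to 0.18) was negative in each replicate pair, at -0.029, -0.011 and -0.25 log2. It was the only one of the 15 members with 3 negative pairs, where 5.83% of all probe sets had them, and nearly all of its size came from replicate 3. Without the DMSO array of that number it was 0.0090 log2.

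TSC2 (tuberin), the subunit that acts on RHEB, had 2 probe sets that differed in brightness and in the sign of their mean difference. The dim 215624_at, at the 10.7 percentile, was at 6.44, 6.51 and 6.34 in Bf 140 nM, against 6.36, 6.38 and 6.16 in DMSO 0.6%, with pair differences of 0.080, 0.13 and 0.18 log2. The bright 215735_s_at, at the 78.8 percentile, was at 9.97, 9.76 and 9.51 in Bf 140 nM, against 10.24, 9.72 and 9.32 in DMSO 0.6%, with pair differences of -0.27, 0.036 and 0.19 log2. Groups overlapped on both. The mean differences were 0.13 log2 (95% confidence interval -0.11 to 0.37) on the dim probe set and -0.013 log2 (-0.62 to 0.59) on the bright one. Without the DMSO array of replicate 3 the dim one was at 0.061 log2. Both probe sets were lowest on the replicate 3 array of each group, and they correlated at r = 0.56 over the 6 arrays. Levels spanned 0.92 log2 on the bright one and 0.35 log2 on the dim one.

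RHEB, the GTPase that activates mTORC1, had 5 probe sets, from the 32.0 to the 98.3 percentile. Affymetrix marks with x those whose probes may bind other sequences and with s those that share probes among transcripts, and 3 pseudogenes named after RHEB are listed for the assembly, so the source of the brightest signal is uncertain. On 201453_x_at the level was 12.97, 12.80 and 13.07 in Bf 140 nM, against 12.95, 12.84 and 13.07 in DMSO 0.6%, and the difference was -0.0046 log2 (95% confidence interval -0.27 to 0.26). On 213404_s_at it was 11.61, 11.88 and 11.65 in Bf 140 nM, against 11.52, 11.62 and 11.82 in DMSO 0.6%, with a difference of 0.058 log2 (-0.24 to 0.36). These were the steadiest of the 5 between arrays.

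The other RHEB probe sets moved with the replicate number, and not in the same direction. On 201452_at, the only one with neither mark, the level was 9.00, 8.27 and 7.74 in Bf 140 nM, against 8.89, 8.45 and 7.47 in DMSO 0.6%. On 213409_s_at it was 6.66, 7.10 and 7.65 in Bf 140 nM, against 6.51, 7.13 and 7.75 in DMSO 0.6%. In both groups the first was lowest and the second highest on the replicate 3 array. Over the 6 arrays they correlated at r = -0.98, a description over arrays that share treatment and replicate structure. The fifth, 201451_x_at, was at 6.78, 7.24 and 7.26 in Bf 140 nM, against 7.03, 6.82 and 7.52 in DMSO 0.6%. Its pair differences of -0.25, 0.42 and -0.26 log2 changed sign between pairs. The mean differences of these 3 probe sets were 0.064, 0.0078 and -0.030 log2, with 95% confidence intervals of -1.03 to 1.16, -0.90 to 0.91 and -0.56 to 0.50. The first is the only member interval that did not exclude a 2-fold change. With the replicate block it was -0.15 to 0.28 log2.

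**Figure D3:**
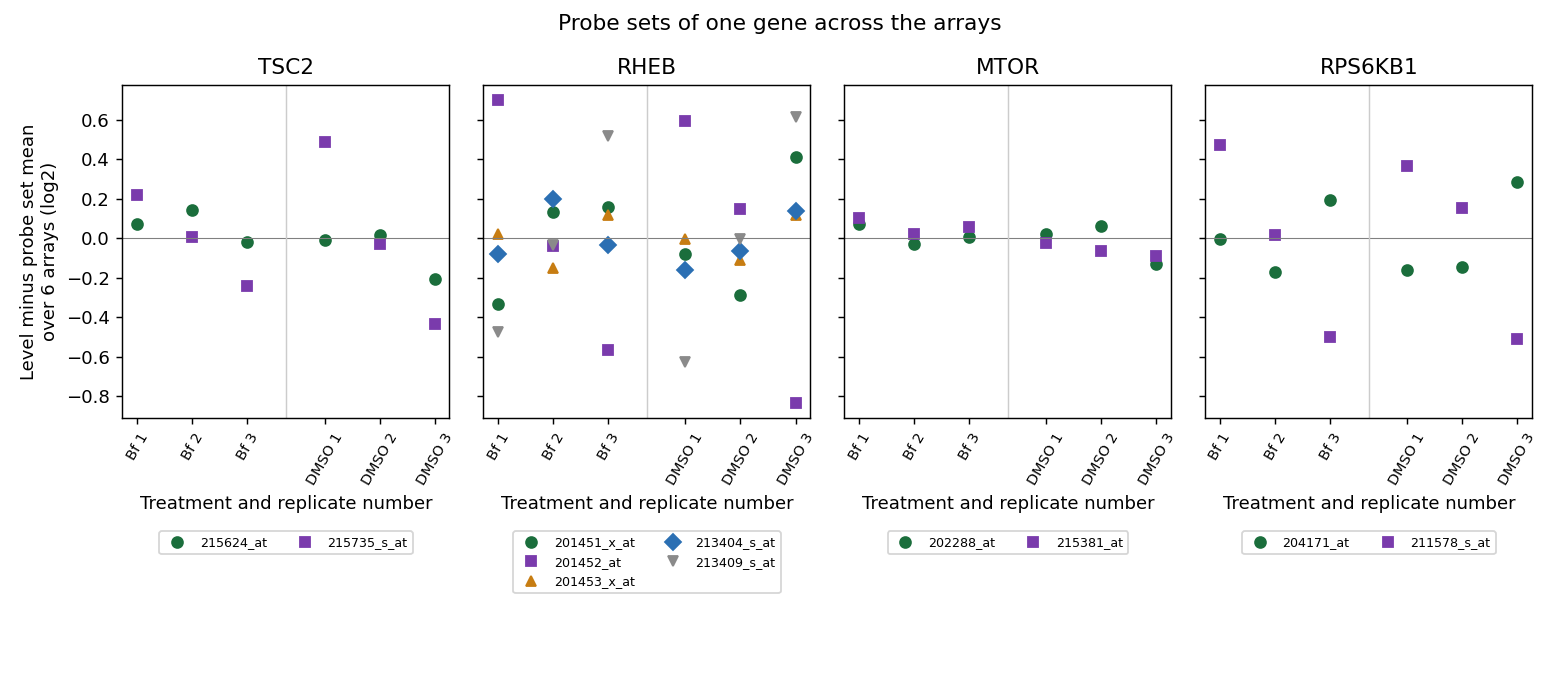
Level of each array minus the mean of its probe set over the 6 arrays in log2 (vertical axis) for the 4 genes with several probe sets, with the 3 Bf 140 nM arrays left of the 3 DMSO 0.6% arrays in each panel (horizontal axis). RHEB 201452_at and 213409_s_at lie on opposite sides of 0 on the replicate 1 and replicate 3 arrays, as do RPS6KB1 204171_at and 211578_s_at on the replicate 3 arrays, and MTOR stays near 0.

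MTOR itself had the smallest ranges over the 6 arrays, 0.20 and 0.19 log2. On 202288_at, at the 56.1 percentile, it was at 8.32, 8.22 and 8.26 in Bf 140 nM, against 8.28, 8.31 and 8.12 in DMSO 0.6%, and the groups overlapped. The difference was 0.031 log2 (95% confidence interval -0.19 to 0.25), with pair differences of 0.049, -0.092 and 0.14 log2. On the dimmer 215381_at, at the 21.7 percentile, it was at 6.87, 6.79 and 6.83 in Bf 140 nM, against 6.75, 6.71 and 6.68 in DMSO 0.6%. Here all 3 Bf 140 nM arrays lay above all 3 DMSO 0.6% arrays, by a mean of 0.12 log2 (95% confidence interval -0.068 to 0.31) and with pair differences of 0.13, 0.086 and 0.15 log2. The exact two-sided permutation test gave p = 0.1, the smallest that 3 arrays against 3 allow, and limma an adjusted p of 1.00. This was 1 of the 15 members without overlap, where 2.06% of all probe sets had Bf 140 nM above and 0.59% had it below (0 members). Together with TSC2 215624_at it makes the 2 of 15 members with positive differences in all 3 pairs, against 11.8% of all probe sets.

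Among the targets, RPS6KB1 repeated the discordance of RHEB. On 204171_at, at the 71.2 percentile, S6K1 transcripts were at 9.20, 9.04 and 9.40 in Bf 140 nM, against 9.05, 9.06 and 9.49 in DMSO 0.6%. On 211578_s_at, at the 58.1 percentile, they were at 8.84, 8.39 and 7.87 in Bf 140 nM, against 8.74, 8.53 and 7.86 in DMSO 0.6%. The replicate 3 array was the highest of its group on the first and the lowest on the second, in both groups, and the probe sets correlated at r = -0.79 over the 6 arrays. The treatment differences were 0.013 log2 (95% confidence interval -0.38 to 0.41) and -0.0076 log2 (-0.77 to 0.76).

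EIF4EBP1, the translation repressor 4E-BP1, was among the bright members at the 92.5 percentile and had the largest difference of the 15 with all arrays and the deposited scaling. It was at 11.52, 11.16 and 11.25 in Bf 140 nM, against 11.31, 11.17 and 11.05 in DMSO 0.6%, so that the groups overlapped. The difference of 0.13 log2 (95% confidence interval -0.18 to 0.44) was made by pairs 1 and 3, at 0.21 and 0.20 log2, and pair 2 gave -0.0099 log2. Without the Bf array of replicate 1 it was 0.030 log2. The assembly lists 2 pseudogenes named after this gene, and whether its probes also bind their transcripts was not tested.

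Pairs differed in how many members were positive. In pair 1 the difference was positive in 12 of 15 member probe sets, with a median of 0.11 log2, where 56.0% of all probe sets were positive. In pair 2 it was positive in 5 of 15 with a median of -0.011 log2 (48.4% of all), and in pair 3 in 8 of 15 with a median of 0.0016 log2 (57.3% of all). No direction was held by all 3 pairs for the set as a whole.

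More members differed by replicate number than by treatment. In limma with treatment and replicate number as factors, 8 of the 15 passed an F test of the replicate number at an adjusted p under 0.10, where 44.6% of all probe sets passed. With quantile normalization 11 of the 15 passed (43.6% of all), and with equal array medians also 11 (49.5% of all). Replicate 3 lay above the mean of replicates 1 and 2 in 4 of them (17.3% of all probe sets) and below it in 4 (27.2% of all). The 4 above were SESN1, RHEB 201451_x_at, RHEB 213409_s_at and RPS6KB1 204171_at, by 0.36 to 0.85 log2. The 4 below were DDIT4, TSC2 215735_s_at, RHEB 201452_at and RPS6KB1 211578_s_at, by -0.41, -0.51, -1.05 and -0.76 log2. Adjusted p values from limma ran from 1.08e-05 for RHEB 201452_at to 0.046 for RHEB 201451_x_at. The 3′ to 5′ gap of the actin and GAPDH controls moved with the same arrays, and its part in these differences was not tested. Neither MTOR probe set, TSC1, TSC2 215624_at, RHEB 201453_x_at, RHEB 213404_s_at nor EIF4EBP1 passed.

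Probe sets of 1 gene often disagreed. The 4 genes with several probe sets form 13 same-gene pairs, of which 10 are of RHEB. Over the 6 arrays 6 of the 13 correlated negatively, 5 of them in RHEB and the remaining one in RPS6KB1. The treatment differences had opposite signs in 8 of the 13. Those of RHEB and RPS6KB1 lay between -0.030 and 0.064 log2, so near 0 that their signs say little. The 10 RHEB pairs reuse the same 5 probe sets, and the share over same-gene pairs of all genes was not computed. DDIT4, SESN1, TSC1 and EIF4EBP1 have 1 probe set each and allow no such check.

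The precision of the set can be read from its intervals. The median 95% confidence interval of a member reached 0.39 log2 on either side of its difference, and 0.19 log2 with the replicate block, where the median over all probe sets was 0.31 and 0.19 log2. A 2-fold change in either direction lay outside the interval of 14 of 15 members, and a 1.5-fold change outside that of 11, or of all 15 with the block. These are folds on the deposited scale, which understates folds near background, and TSC2 215624_at and MTOR 215381_at were dim. Changes that lie inside an interval are not excluded by the fit that gave it, and a limit of detection was not computed.

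The wider pathway was compared in the same fit, over 79 further genes of which 61 were found on 106 probe sets. At an adjusted p under 0.10 from limma, 0 of the 106 were higher and 0 were lower in Bf 140 nM, and 0 had an unadjusted p under 0.05. With the replicate block 4 of the 106 had one (PRR5L, PIK3R1, NPRL2 and EIF4B), against 1.22% of all probe sets, and 0 passed after adjustment. The median difference of the 106 was 0.0036 log2, against 0.014 log2 over all tested probe sets, and 54 of 106 were positive, against 58.4% of all. Groups did not overlap in 3 of the 106, 2 with Bf 140 nM above (2.06% of all probe sets) and 1 with it below (0.59% of all).

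NPRL2, a subunit of the GATOR1 complex that restrains mTORC1 when amino acids are scarce, had the smallest p of the amino acid sensing genes (18 probe sets, median 0.014 log2). Its probe set 210373_at was at 7.59, 7.47 and 7.62 in Bf 140 nM, against 7.45, 7.10 and 7.30 in DMSO 0.6%. All Bf 140 nM arrays were above, by 0.27 log2 on average (95% confidence interval -0.0026 to 0.55, adjusted p = 1.00 from limma). The interval with the replicate block was 0.087 to 0.46 log2, but this probe set did not pass after adjustment there either. The other NPRL2 probe set differed by 0.059 log2. SLC7A5, the leucine transporter subunit, differed by -0.14 log2 (-0.46 to 0.17, and -0.35 to 0.063 with the block).

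PRKAA2, a catalytic subunit of the energy sensor AMPK, was the other probe set that lay higher without overlap. It was at 7.36, 7.38 and 7.48 in Bf 140 nM, against 7.20, 7.28 and 7.32 in DMSO 0.6%, a difference of 0.14 log2 (95% confidence interval -0.062 to 0.34). In the same list of growth factor and energy inputs (27 probe sets, median -0.0024 log2), PIK3R1, the regulatory subunit of PI3-kinase, differed by 0.24 log2 (-0.11 to 0.58) on 1 of its probe sets and by 0.011 and 0.089 log2 on the others. The intervals with the replicate block were -0.037 to 0.32 log2 for PRKAA2 and 0.024 to 0.45 log2 for the PIK3R1 probe set at 0.24 log2. Neither passed after adjustment. Pair differences of that PIK3R1 probe set were 0.50, 0.16 and 0.051 log2, and without the DMSO array of replicate 1 it was at 0.095 log2. Among the mTORC1 and mTORC2 subunits (9 probe sets, median -0.025 log2), PRR5L, a partner of mTORC2, lay lower without overlap. It was at 6.10, 6.26 and 6.16 in Bf 140 nM, against 6.27, 6.40 and 6.45 in DMSO 0.6%, a difference of -0.20 log2 (-0.43 to 0.024) at the 8.46 percentile of level. For PRR5L the interval with the block was -0.38 to -0.020 log2, and it did not pass after adjustment. DEPTOR, an inhibitory subunit, differed by 0.11 log2 (-0.13 to 0.35, and -0.078 to 0.29 with the block).

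Of the further stress regulators (10 probe sets of 7 genes), 8 had positive differences, where 58.4% of all probe sets did, and the median was 0.057 log2. DDIT3 (CHOP) was at 0.14 log2 (95% confidence interval -0.12 to 0.40). BNIP3, a mitochondrial protein induced by hypoxia, was at 0.090 log2 (-0.24 to 0.42, and 0.058 on its other probe set). TRIB3, at -0.027 log2, and 1 probe set of NIBAN1, at -0.016 log2, were the negative ones. None passed the test. Among translation targets (21 probe sets, median -0.014 log2) the initiation factor EIF4B differed by 0.64 log2 (-1.01 to 2.30) on 219599_at, and by -0.016 and -0.0073 log2 on its other probe sets. The first of these was the largest difference of all tested probe sets, but its pairs gave 1.48, 0.47 and -0.017 log2. This probe set had an interval of 0.22 to 1.07 log2 with the replicate block, without passing after adjustment. Its lowest level, 7.74, was on the DMSO array of replicate 1, and without that array the difference was 0.060 log2. The elongation factor EEF2 differed by -0.10 and -0.095 log2 on its probe sets. Among autophagy and lysosome targets (21 probe sets, median 0.0036 log2), TFE3, a transcription factor of lysosomal genes, differed by 0.14 log2 (-0.27 to 0.54) on 1 probe set and by 0.027 log2 on the other. GABARAPL1, an ATG8 protein of the autophagosome, differed by 0.049 log2 (-0.13 to 0.23) on 1 and by -0.0076 log2 on the other.

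**Figure D4:**
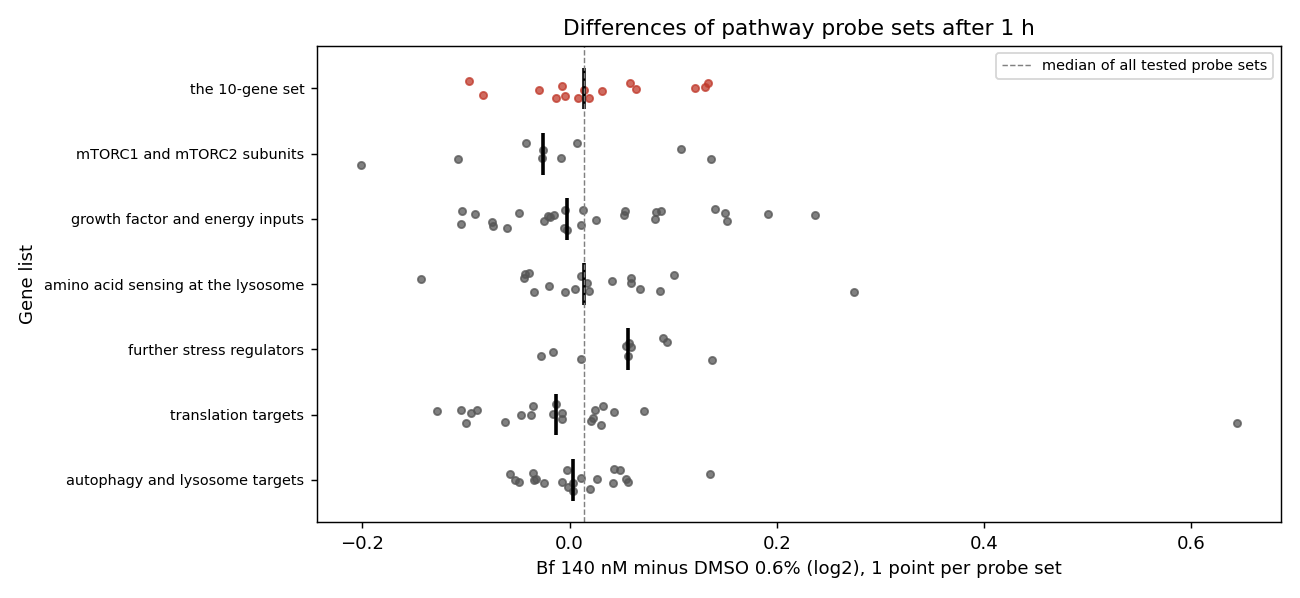
Bf 140 nM minus DMSO 0.6% in log2 (horizontal axis), 1 point per probe set, for the 10-gene set in red and 6 lists of other pathway genes (vertical axis), with list medians as black bars and the median of all tested probe sets as a dashed line. The point at 0.64 log2 is EIF4B 219599_at, and the medians of the 6 lists lie between -0.025 and 0.057 log2.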

How the data were processed

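Arrays of 6 samples (Affymetrix GeneChip, human) were used. The authors normalized the intensities by VSN, with R 2.5.0 per the submitters' notes, and the deposited table holds the resulting log2 values. The summary of probes into probe sets, the arrays normalized together and the log base are not given in the sources used here. Base 2 was taken from the method. Near background the scale understates folds. A probe set's level also depends on its probes, so percentiles rank brightness, not transcript amounts between genes. Symbols came from the platform annotation (19064 probe sets with 1 symbol, 1043 with several, 2108 with none), and all 10 members were found in the GRCh38.p14 table used for names.

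All 22215 probe sets left after 62 platform controls were fitted in limma 3.58.1 (R 4.3.3, lmFit and eBayes) with no filter and Benjamini-Hochberg adjustment over all of them. The threshold for a call was an adjusted p of 0.10, after the study's FDR. Its SAM test and its Present-call filter were not run here. On simulated data the treatment fit called most of the added changes, and the replicate fit called only part of the larger ones and none of the smaller. Simulated arrays were drawn independently of each other, unlike the same-numbered arrays here. Even the smaller added change exceeded every member difference, so the simulation does not show how changes of that size would be called. Deviations from the group means correlated at 0.72, 0.78 and 0.88 between same-numbered arrays. A second numbering in the labels matches the arrays in the same way, but neither names a shared day or batch. The leading fit had no block, since the methods name no pairing, and the fit with the block is given beside it. The number of arrays limits the precision.

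The members and lists were chosen with earlier results of these data known. The rule for named genes took every member probe set and, in each list of other pathway genes, the 2 probe sets with the smallest p and those whose groups did not overlap. It also took the 5 probe sets most correlated with DDIT4. Alternatives comprised a fit with the replicate block, other scalings (quantile, or array medians set equal), level filters (median or lower quartile), trend and robust eBayes, array weights, other thresholds, gene means, each array left out, and both replicate 3 arrays left out. Leaving arrays out for the other pathway genes, and counting signs under each scaling, were chosen after seeing the data.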

Additional observations from a re-analysis of the deposited data

How the results depend on the processing

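In each setting run, 0 member probe sets passed the comparison of Bf 140 nM with DMSO 0.6%, the replicate block and adjusted p thresholds of 0.05 and 0.2 included. With the numbers alike in both groups the block cannot move a difference, so the median stayed at 0.013 log2. It changed no call of the treatment either. That median was 0.0035 log2 with quantile normalization and -0.0059 log2 with equal array medians. Filters left out members below them, and those have no value there. With 1 array left out, the median over the members was 0.0027 to 0.090 log2. The test of the replicate number was then passed by 6 to 11 of 15 members and by 7392 to 11061 of 22215 probe sets. With quantile normalization 11 of the 15 passed it (43.6% of all), and with equal array medians also 11 (49.5% of all). The filter at the median left fewer probe sets to test, and 5 of the 10 members left passed, as did 7002 of all probe sets left. Without both replicate 3 arrays 4 of the 15 passed, where 2783 of all probe sets passed in place of 9897 over all arrays.

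Of 214 recomputed member differences 170 kept their sign, 44 turned it and 0 crossed the threshold, and the cause of the turns was not tested. The replicate block, trend and robust eBayes and the level filters cannot move a difference. Signs kept under these settings were fixed in advance and tell nothing of stability. TSC2 215624_at, MTOR 215381_at and EIF4EBP1 are the 3 members that did not turn under any setting. The groups of MTOR 215381_at do not overlap, so leaving out or weighting arrays could not turn its sign. TSC2 215624_at and MTOR 215381_at also have no value under the level filters. Quantile normalization gave -0.013 log2 for DDIT4, 0.0035 for RHEB 201453_x_at and -0.017 for RHEB 213409_s_at. Equal array medians gave -0.00055 for DDIT4, -0.0059 for RPS6KB1 204171_at and -0.012 for RHEB 213409_s_at. Array weights, whose estimate stopped before its tolerance was reached, gave -0.095 for DDIT4, 0.21, -0.029, 0.042 and -0.045 for RHEB 201451_x_at, 201452_at, 201453_x_at and 213409_s_at, -0.040 for MTOR 202288_at and 0.023 for TSC2 215735_s_at. Without both replicate 3 arrays RHEB 201451_x_at was at 0.083, RHEB 201452_at at -0.038 and MTOR 202288_at at -0.022. Gene means were 0.019 for RHEB, 0.0030 for RPS6KB1 and 0.059 for TSC2, opposite in sign to single probe sets of each.

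With each array left out in turn, the difference ranged from -0.10 to 0.18 log2 for DDIT4, -0.22 to 0.11 for SESN1, -0.16 to 0.0090 for TSC1, -0.23 to 0.23 for TSC2 215735_s_at, and -0.026 to 0.069 for MTOR 202288_at. For RHEB it ranged from -0.18 to 0.17 on 201451_x_at, -0.34 to 0.38 on 201452_at, -0.065 to 0.069 on 201453_x_at, -0.028 to 0.14 on 213404_s_at and -0.30 to 0.32 on 213409_s_at. For RPS6KB1 it ranged from -0.079 to 0.16 on 204171_at and from -0.26 to 0.24 on 211578_s_at. The members that kept their sign ranged from 0.030 to 0.21 (EIF4EBP1), 0.061 to 0.17 (TSC2 215624_at) and 0.10 to 0.14 (MTOR 215381_at). Of the other pathway genes named, in a check chosen after seeing the data, BNIP3 ranged from -0.016 to 0.20 and EIF4B 219599_at from 0.060 to 1.36. BNIP3 was the only one of the 12 whose sign turned, but the 12 were picked in these data by smallest p or lack of overlap. For NPRL2, PRKAA2 and PRR5L, as for MTOR 215381_at, the groups do not overlap and leaving out 1 array could not turn the sign. TFE3 fell to 0.0041 log2 without the DMSO array of replicate 3, and DEPTOR to 0.032 log2 without that of replicate 1.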

Other observations

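The probe sets whose pattern over the 6 arrays was most like that of DDIT4 were those of TIMP1, an inhibitor of matrix metalloproteinases (r = 0.998), HLA-DRB6 (r = 0.995), TCF7L2, a transcription factor of Wnt signalling (r = 0.994), ATRN (r = 0.992) and IFITM3, an interferon-induced membrane protein (r = 0.991). Their own differences between Bf 140 nM and DMSO 0.6% were between 0.0065 and 0.036 log2. Of 19063 probe sets with 1 symbol compared with DDIT4, 264 had an r over 0.95. The arrays share replicate numbers, and the lowest DDIT4 value of each group was on its replicate 3 array, so the likeness describes these 6 arrays only.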
